A study of Mus musculus with 18 samples.

Results

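The integrin and laminin genes of the mouse were taken as every protein-coding gene whose symbol begins with Itga, or is Itgb or Lama, Lamb or Lamc followed by a number. This rule gave 37 of the 54532 genes counted, of which 22046 are protein-coding: 18 integrin alpha, 8 integrin beta and 11 laminin genes. RNA from the heart apex was sequenced in 18 libraries, 3 in each of 6 groups, with all mice labelled WT, and the study asked what added lamin A or lamin C does in hearts in which Lmna is targeted. Batch LC held control hearts, hearts labelled with an Lmna shRNA (L881) and hearts labelled with that shRNA plus lamin C. Batch LA held its own control hearts, hearts with the same shRNA and hearts with the shRNA plus lamin A. Delivery was by rAAV9, an adeno-associated viral vector used to reach heart muscle. Strain, age, dose, time after delivery, the promoter of each vector and what the control hearts received are not given in the sources used here. The labels number the libraries of a group but name no separate litters or cultures, so p-values measure the spread between these libraries. The numbers in the sample names run from 377 to 389 in batch LC and from 774 to 791 in batch LA, except for control library 3 of each batch, numbered 827 and 826. The labels place these in batches LC and LA, and counts against control are also given without both.

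Integrins are receptors that span the plasma membrane as a pair of 1 alpha and 1 beta subunit and tie the surrounding matrix to the actin cytoskeleton. The alpha subunit largely sets the ligand: laminin, collagen, proteins with an RGD sequence such as fibronectin and vitronectin, or counter-receptors on other cells for the leukocyte integrins. Laminins are cross-shaped trimers of an alpha, a beta and a gamma chain that form the basement membrane, the sheet around every cardiomyocyte and under the endothelium. In heart muscle the main pairing is of integrin α7 and β1 with laminins that contain the α2 chain.

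Libraries held 31418657 to 41259968 counts. Lmna, the targeted gene, was not lower in the hearts labelled shRNA: it stood at 122.4, 128.5 and 119.8 CPM (counts scaled to library size) in control and 136.8, 133.5 and 114.8 CPM in shRNA hearts of batch LC, a log2 change of 0.06 ± 0.08 (adjusted p = 0.578), and changed by 0.11 ± 0.08 (adjusted p = 0.258) in batch LA. Groups are therefore named by their labels, and every direction below is that of hearts labelled shRNA. Lmna was higher than in the matching shRNA hearts by 3.29 ± 0.09 on the log2 scale in lamin C hearts (adjusted p = 8.82e-15) and by 2.07 ± 0.08 in lamin A hearts (adjusted p = 1.79e-11). All 8 cardiomyocyte markers (such as Myh6, Actc1 and Tnnt2) were present in every group, and their summed level was 20536.3 to 21421.1 FPKM (reads scaled to gene length and library size) in control and 9541.3 to 10622.4 FPKM in shRNA hearts of batch LC. The share of counts from mitochondrially encoded genes ran from 25.19 to 27.02% in control hearts, 12.96 to 15.62% in shRNA, 23.19 to 24.78% in lamin C and 20.31 to 22.58% in lamin A hearts, and its part in the results was not tested.

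Most integrin and laminin genes were higher in the shRNA hearts than in their own controls, in both batches. Of the 37 members, 35 passed the filter on low counts, and Itgad and Lama1 did not, with 0 to 7 counts in a library. In batch LC, 23 of the 35 were called higher and 6 lower at an adjusted p under 0.05, where 33.3% of all 17876 genes tested were called higher and 29.6% lower. In batch LA, 23 were called higher and 5 lower, against 32.4% and 29.0% of all genes. The median log2 change of the members was 0.65 in batch LC and 0.75 in batch LA, against 0.05 over all genes in each. Every one of the 23 higher in one batch was higher in the other, and Lamb2, Lama5, Itga1, Itgb6 and Lamb3 were lower in both. Of 17 integrin alpha genes tested 12 were higher and 1 lower in each batch (medians of 1.14 and 1.11), of 8 beta genes 7 and 1 (1.48 and 1.33), and of 10 laminin genes 4 and 4 in batch LC and 4 and 3 in batch LA (0.18 and 0.02). No member differed between the batches in its shRNA effect, a comparison in which 0.00559% of all genes were called higher and 0.0% lower, and none was called with DESeq2. The count over all genes, 1 higher and 0 lower, became 25 and 22 without control library 3 of batch LC, 12 and 12 without control library 3 of both batches, and 160 and 87 with no filter, with no member called in any of these. Without control library 3 of both batches, 22 members were called higher and 5 lower in batch LC and 23 and 5 in batch LA. In edgeR's fit, 3 members, Itga2 (0.83), Itgb8 (0.60) and Itga7 (-0.16), had an unadjusted p under 0.05 for that difference.

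The scale of the libraries bears on these counts. With library totals in place of TMM factors, the median of all genes moved from 0.05 to 0.47 in batch LC and from 0.05 to 0.48 in batch LA. The members then split into 29 higher and 3 lower in each batch, where 58.3% of all genes were higher and 13.5% lower in batch LC and 59.5% and 12.7% in batch LA. The 3 lower were Itgb6, Lamb3 and Lama5. On that scale Lamb2 (0.21 and 0.22), Itga1 (0.09 and 0.16) and Itga6 (0.27 and 0.30) turned from lower to higher in batches LC and LA, so their direction depends on the scale. Lamb1 turned too, to 0.20 and 0.42.

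Some exons of the members are shared with other gene models, and without the strand setting of the counting their reads cannot be told apart. Opposite-strand models cover 8.04% of the exon bases of Itga4, 7.66% of Itgb4, 6.27% of Lamc3, 5.9% of Itgav, 5.05% of Itga8, 3.86% of Lama2 and 1.83% of Lama3. A same-strand model covers 3.68% of Itga1, 33.5% of Itga10 (Gm42957) and 68.7% of Itgam (Gm49368), so the levels of the last pair are uncertain.

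**Figure D1:**
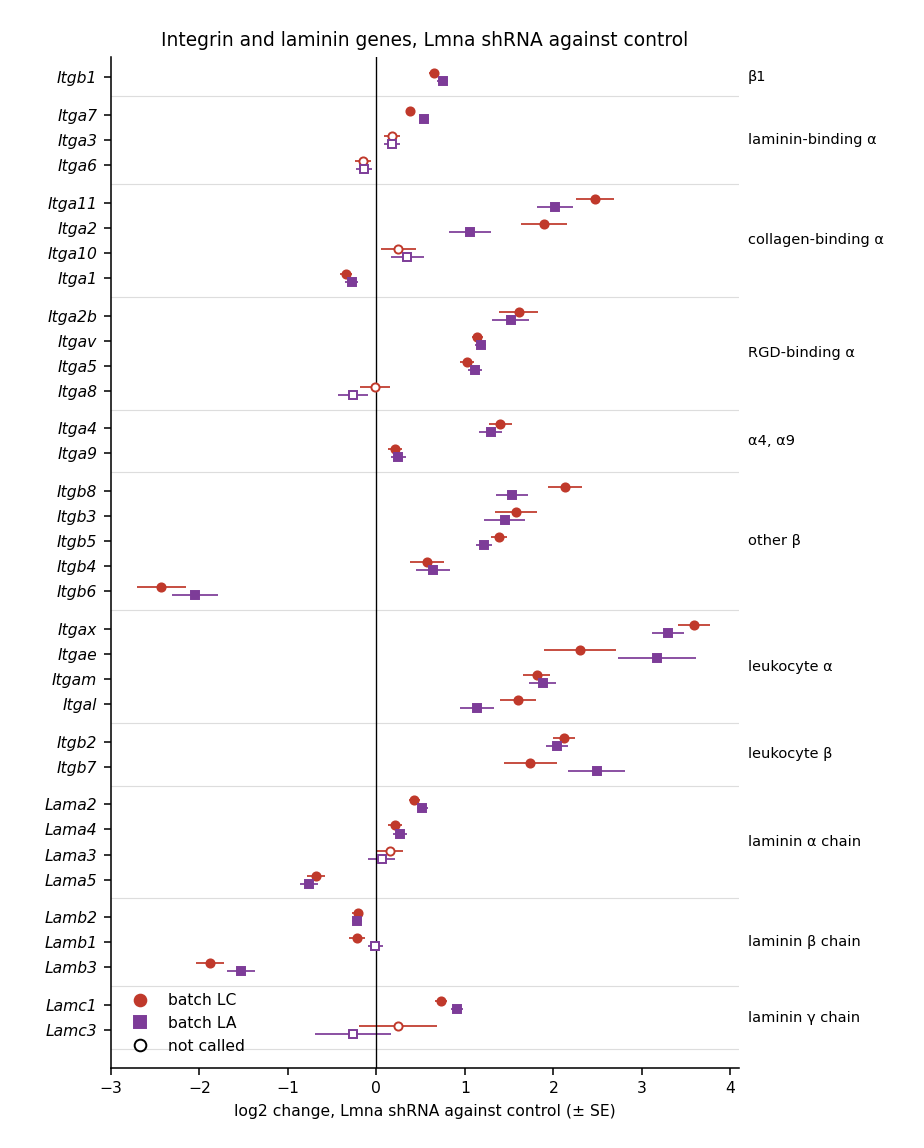
Log2 change between Lmna shRNA and control hearts (x axis, ± SE) for members that passed the filter, grouped by role, with circles for batch LC, squares for batch LA and open symbols for changes that were not called. Itgax lies furthest to the right, at 3.59 and 3.30, and Itgb6 and Lamb3 lie furthest to the left.

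Promoter sequence is shown for 7 of the members that moved without overlap of groups in both batches, 5 upward and 2 downward. Each of the 7 windows holds a marked motif, which not every window of such members did. RefSeq promoters (GRCm38.p6) were found for 23 of the 37 members, in 26 windows. No entry was found for the others. Each window is the 250 bases before a transcript start, 5′ to 3′ on the strand of the gene. Of the 7 printed, none overlaps an annotated exon but for 3 bases of the Itgax window and 1 base of the Lamb3 window, and that window lies inside the Lamb3 gene, before an internal RefSeq start. Capitals mark TGANTCA (the AP-1 motif) in Itgax, GAGGAA or its reverse complement (a core of the motif of PU.1, a myeloid factor) in Itgam, Itgav, Itga5, Lama5 and Lamb3, and GGGCGG or its reverse complement (the GC box) in Itgb5. The windows of Itgam, Itga5 and Lama5 also hold 1, 2 and 4 GC box matches, which are left in lower case.
Itgax (chr7:128129300-128129549, plus strand): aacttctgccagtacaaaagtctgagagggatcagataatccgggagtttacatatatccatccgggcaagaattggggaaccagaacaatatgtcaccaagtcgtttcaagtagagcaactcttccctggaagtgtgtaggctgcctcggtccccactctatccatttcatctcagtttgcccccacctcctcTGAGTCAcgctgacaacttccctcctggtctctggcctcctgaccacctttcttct
Itgam (chr7:128062390-128062639, plus strand): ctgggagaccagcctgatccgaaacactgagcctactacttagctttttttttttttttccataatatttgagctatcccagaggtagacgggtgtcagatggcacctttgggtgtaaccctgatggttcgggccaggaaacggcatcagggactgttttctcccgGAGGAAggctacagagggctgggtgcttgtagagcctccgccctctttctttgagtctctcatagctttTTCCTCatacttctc
Itgav (chr2:83724147-83724396, plus strand): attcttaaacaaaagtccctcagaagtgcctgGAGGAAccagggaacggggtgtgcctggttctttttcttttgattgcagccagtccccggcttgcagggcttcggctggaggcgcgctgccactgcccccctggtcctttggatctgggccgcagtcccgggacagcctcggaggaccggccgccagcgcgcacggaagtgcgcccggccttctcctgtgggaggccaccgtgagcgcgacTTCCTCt
Itga5 (chr15:103366792-103367041, minus strand): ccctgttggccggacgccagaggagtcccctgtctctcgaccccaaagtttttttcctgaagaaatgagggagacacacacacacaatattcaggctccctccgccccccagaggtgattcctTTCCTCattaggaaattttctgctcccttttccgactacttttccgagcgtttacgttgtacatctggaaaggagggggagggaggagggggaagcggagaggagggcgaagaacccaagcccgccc
Itgb5 (chr16:33829415-33829664, plus strand): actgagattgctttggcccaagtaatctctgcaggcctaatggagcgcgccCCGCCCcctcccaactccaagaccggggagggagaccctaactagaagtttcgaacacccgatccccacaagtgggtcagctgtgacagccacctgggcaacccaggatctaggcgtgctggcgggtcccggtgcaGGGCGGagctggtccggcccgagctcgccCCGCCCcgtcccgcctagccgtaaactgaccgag
Lama5 (chr2:180225860-180226109, minus strand): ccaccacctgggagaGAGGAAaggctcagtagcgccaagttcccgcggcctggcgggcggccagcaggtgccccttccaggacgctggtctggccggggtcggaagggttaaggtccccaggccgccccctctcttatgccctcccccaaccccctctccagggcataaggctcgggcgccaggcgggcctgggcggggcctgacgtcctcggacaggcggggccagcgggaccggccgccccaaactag
Lamb3 (chr1:193301744-193301993, plus strand): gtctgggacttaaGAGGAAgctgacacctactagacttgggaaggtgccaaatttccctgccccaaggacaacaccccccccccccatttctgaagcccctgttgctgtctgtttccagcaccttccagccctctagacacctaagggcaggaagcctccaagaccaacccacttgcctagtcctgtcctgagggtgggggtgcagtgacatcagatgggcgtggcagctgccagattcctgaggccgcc

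On both strands, TGANTCA was in 1 of the 26 member windows, that of Itgax, and in 6.75% of all 32851 promoters. GAGGAA was in 13 of the 26 and in 23.3% of all, GGGCGG in 9 and in 32.7%, and CATTCC (the MCAT motif, bound by TEAD factors) in 3 and in 12.6%. The CArG box, bound by serum response factor, was in 2, of Itgb6 and Lama2, and in 1.47% of all. Both of these windows lie inside their genes, before internal RefSeq starts, and the other Itgb6 window held no match to any motif. The windows of Itga1, Itga2, Itga8, Itga9, Itgb7 and Itgb8 held no match either. Of these, Itga2, Itgb7 and Itgb8 rose in shRNA hearts of both batches without overlap of groups. GAGGAA stood in windows of members that rose (Itgam, Itgav, Itga5) and of members that fell (Lama5, Lamb3). Each motif was searched on its own and matches may overlap, since CATTCC and the reverse complement of GAGGAA can share letters, and a match describes the letters only.

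Itgb1 encodes the β1 subunit, which pairs with the laminin-, collagen- and most fibronectin-binding alpha subunits, and was the most abundant member. It stood at 143.8, 143.8 and 152.8 FPKM in control and 226.7, 214.6 and 243.6 FPKM in shRNA hearts of batch LC. In batch LA the levels were 146.2, 148.3 and 144.6 FPKM in control and 259.1, 233.2 and 244.3 FPKM in shRNA hearts. All shRNA libraries lay above all control libraries, and the log2 change was 0.65 ± 0.06 (adjusted p = 6.53e-09) in batch LC and 0.75 ± 0.06 (adjusted p = 7.82e-10) in batch LA. Pairs of log2 changes below are in that order. Its share of the summed level of the 8 beta genes was 80.4 to 81.6% in control and 72.2 to 72.6% in shRNA hearts of batch LC, and that of Itgb5 was 14.9 to 16.4% and 22.8 to 24.1%.

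Among the 3 laminin-binding alpha subunits only Itga7 was called. Itga7, the main alpha partner of β1 in heart and skeletal muscle, stood at 27.6, 26.5 and 26.4 FPKM in control and 34.4, 35.0 and 34.9 FPKM in shRNA hearts of batch LC. Batch LA had 27.6, 24.8 and 25.9 FPKM in control and 38.5, 37.0 and 37.5 FPKM in shRNA hearts of batch LA. It was the most abundant alpha gene in control hearts of both batches, and rose by 0.38 ± 0.05 (adjusted p = 2.69e-06) and 0.54 ± 0.05 (adjusted p = 2.78e-08) on the log2 scale with no overlap of groups. The ratio of Itga7 to Itgb1 was 0.173 to 0.192 in control and 0.143 to 0.163 in shRNA hearts of batch LC. The other laminin-binding genes, Itga3 and Itga6, changed by 0.18 ± 0.09 and -0.15 ± 0.09 in batch LC and by 0.18 ± 0.09 and -0.14 ± 0.09 in batch LA, and neither passed the test. The control and shRNA groups of both genes overlapped, and Itga6 was 0.27 and 0.30 higher with library totals.

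The collagen receptors split, with Itga11 and Itga2 higher, Itga1 lower and Itga10 not called. Itga11, a collagen receptor typical of fibroblasts, stood at 0.543, 0.722 and 1.0 FPKM in control and 3.71, 4.51 and 4.29 FPKM in shRNA hearts of batch LC. The values of batch LA were 1.06, 1.05 and 1.01 FPKM in control and 4.15, 4.21 and 4.23 FPKM in shRNA hearts of batch LA. Every shRNA library was above every control library, and the log2 change was 2.47 ± 0.21 (adjusted p = 3.53e-09) and 2.02 ± 0.20 (adjusted p = 3.58e-08). Itga2, the collagen receptor of platelets and epithelia, was far scarcer, at 0.13, 0.0529 and 0.0885 FPKM in control and 0.366, 0.318 and 0.325 FPKM in shRNA hearts of batch LC. Batch LA gave 0.187, 0.134 and 0.164 FPKM in control and 0.299, 0.315 and 0.392 FPKM in shRNA hearts of batch LA. It rose by 1.89 ± 0.26 (adjusted p = 3.93e-06) and 1.06 ± 0.24 (adjusted p = 0.000876), again without overlap, though a library held only 11 to 129 of its counts. Itga1 was the most abundant collagen receptor, at 3.83, 4.16 and 4.59 FPKM in control and 3.27, 3.43 and 3.21 FPKM in shRNA hearts of batch LC. In batch LA the levels were 4.43, 4.32 and 4.38 FPKM in control and 3.23, 3.76 and 3.74 FPKM in shRNA hearts. It fell, with log2 changes of -0.34 ± 0.07 (adjusted p = 0.000217) and -0.28 ± 0.07 (adjusted p = 0.0012) with TMM factors, but was 0.09 and 0.16 higher with library totals. In FPKM, Itga1 exceeded Itga11 in every control library, and in shRNA hearts the order was reversed in every library. That reversal rests on the gene lengths used, 18599 bases for Itga1 and 5131 for Itga11. In CPM, Itga1 remained above Itga11 in shRNA hearts, at means of 63.0 and 22.0 in batch LC and 68.4 and 22.1 in batch LA. Itga10 changed by 0.25 ± 0.20 and 0.35 ± 0.19, which did not pass the test, and its counts are uncertain.

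Activated fibroblast markers moved with the same comparisons. All 6 (Postn, Cthrc1, Acta2, Comp, Fap and Cilp, with Cthrc1 at 3 counts or fewer in control hearts of batch LC) were higher in shRNA hearts of both batches, with a summed level of 95.2 to 145.2 FPKM in control, 761.7 to 886.7 FPKM in shRNA and 214.2 to 269.9 FPKM in lamin C hearts of batch LC. In batch LA the sums were 137.5 to 169.0, 788.1 to 846.8 and, in lamin A hearts, 413.1 to 566.6 FPKM. Of 8 general fibroblast markers 6 were higher in each batch and 1 lower in batch LA, and their sum was 538.1 to 643.9 FPKM in control and 942.1 to 1024.1 FPKM in shRNA hearts of batch LC. Of 8 smooth muscle and pericyte markers 3 were higher and 4 lower in each batch, and of 6 Schwann cell markers 1 was higher in each batch and 1 lower in batch LC. The smooth muscle and pericyte sum was 731.7 to 770.4 FPKM in control and 1044.6 to 1229.5 FPKM in shRNA hearts of batch LC. Over all genes 33.3% were higher and 29.6% lower in batch LC, and 32.4% and 29.0% in batch LA. The part of these markers in the integrin results was not tested, and in bulk tissue more cells of a type and more RNA per cell cannot be told apart.

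The alpha subunits that bind RGD sequences rose except Itga8. Itgav, the partner of β1, β3, β5, β6 and β8 and a receptor for vitronectin and latent TGF-β, stood at 3.06, 3.07 and 3.16 FPKM in control and 7.12, 6.67 and 6.61 FPKM in shRNA hearts of batch LC. Batch LA had 2.91, 3.22 and 3.27 FPKM in control and 6.54, 7.11 and 7.51 FPKM in shRNA hearts of batch LA. The groups were far apart for the spread within each, with log2 changes of 1.14 ± 0.06 (adjusted p = 9.29e-12) and 1.18 ± 0.06 (adjusted p = 7.24e-12). Itga5, which with β1 forms the classic fibronectin receptor, was the most abundant RGD-binding alpha gene, at 15.8, 16.7 and 16.3 FPKM in control and 32.3, 30.0 and 36.2 FPKM in shRNA hearts of batch LC. In batch LA it stood at 16.5, 16.9 and 15.8 FPKM in control and 38.9, 33.7 and 32.8 FPKM in shRNA hearts. It rose without overlap, by 1.02 ± 0.08 (adjusted p = 2.33e-09) and 1.11 ± 0.08 (adjusted p = 8.41e-10) on the log2 scale. Itga2b, the platelet subunit that pairs with β3, was scarce and rose from 0.123, 0.195 and 0.148 to 0.5, 0.478 and 0.439 FPKM in batch LC. In batch LA Itga2b went from 0.251, 0.182 and 0.13 to 0.501, 0.578 and 0.541 FPKM. Its change was 1.61 ± 0.22 (adjusted p = 3.32e-06) and 1.52 ± 0.21 (adjusted p = 4.36e-06). Of 7 platelet markers, Gp1bb was at 3 counts or fewer in every library, as were Gp9, Gp1ba, Gp5 and Gp6 in control hearts of batch LC, and the summed level was 16.1 to 19.0 FPKM in control and 20.9 to 25.7 FPKM in shRNA hearts of batch LC, with 1 of the 2 tested markers higher. Its part was not tested. Itga8, a subunit of smooth muscle and fibroblasts, changed by -0.02 ± 0.17 and -0.26 ± 0.17 and was not called, and in batch LC it was 0.41 higher with library totals.

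The beta subunits that pair with αv moved in opposite directions. Itgb5, second to Itgb1 among the beta genes in level, stood at 26.3, 29.4 and 29.3 FPKM in control and 72.2, 67.8 and 81.5 FPKM in shRNA hearts of batch LC. The values of batch LA were 32.3, 30.6 and 30.4 FPKM in control and 78.5, 67.5 and 69.9 FPKM in shRNA hearts of batch LA. The lowest shRNA library, at 67.5 FPKM, was well above the highest control library, at 32.3 FPKM, and the log2 change was 1.39 ± 0.09 (adjusted p = 8.72e-11) and 1.22 ± 0.09 (adjusted p = 5.87e-10). Itgb3, the vitronectin receptor subunit of platelets, osteoclasts and activated stroma, went from 0.353, 0.244 and 0.327 to 0.805, 0.809 and 1.14 FPKM in batch LC. Itgb3 of batch LA went from 0.379, 0.514 and 0.42 to 0.868, 1.32 and 1.37 FPKM, with log2 changes of 1.58 ± 0.24 (adjusted p = 1.09e-05) and 1.45 ± 0.23 (adjusted p = 1.59e-05). Itgb8, which with αv activates latent TGF-β, went from 0.145, 0.146 and 0.0983 to 0.669, 0.578 and 0.455 FPKM in batch LC. In batch LA Itgb8 went from 0.177, 0.205 and 0.182 to 0.579, 0.539 and 0.505 FPKM. Both were low in level and without overlap between groups, and Itgb8 rose by 2.13 ± 0.19 (adjusted p = 6.34e-09) and 1.53 ± 0.18 (adjusted p = 3.48e-07).

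Itgb6 ran the other way. The αvβ6 integrin, known mainly from epithelia, also activates latent TGF-β. Its gene stood at 2.65, 2.39 and 3.13 FPKM in control and 0.554, 0.722 and 0.233 FPKM in shRNA hearts of batch LC. Batch LA gave 2.87, 3.0 and 3.27 FPKM in control and 0.378, 0.952 and 0.862 FPKM in shRNA hearts of batch LA. No shRNA library reached 1 FPKM while no control library was under 2.39 FPKM, and the log2 change was -2.43 ± 0.28 (adjusted p = 2.71e-07) and -2.05 ± 0.26 (adjusted p = 1.48e-06). This was the largest fall of the 35 members in both batches, and it kept its direction with library totals, at -2.01 and -1.61. The ratio of Itgb6 to Itgb5 was 0.0812 to 0.107 in control and 0.00285 to 0.0107 in shRNA hearts of batch LC, and 0.0889 to 0.108 and 0.00481 to 0.0141 in batch LA. Of 6 epithelial and mesothelial markers tested, 2 were called higher in each batch and 4 were not called, with log2 changes from -1.81 to 4.36 in batch LC and from -0.65 to 5.43 in batch LA, and their sum was 1.02 to 3.93 FPKM in control and 7.06 to 8.89 FPKM in shRNA hearts of batch LC, with Epcam at 3 counts or fewer in control hearts. Over all genes 33.3% were higher and 29.6% lower in batch LC, and 32.4% and 29.0% in batch LA. Of the 8 cardiomyocyte markers, 8 were lower in both batches. With library totals 5 were lower in each batch, and 2 were higher in batch LA. The part of both marker lists in the Itgb6 result was not tested. Itgb4, the hemidesmosome subunit, rose by 0.57 ± 0.19 (adjusted p = 0.0132) and 0.64 ± 0.19 (adjusted p = 0.00606), and in batch LC it lost its call without control library 3 or shRNA library 2, at 0.48 and 0.44.

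**Figure D2:**
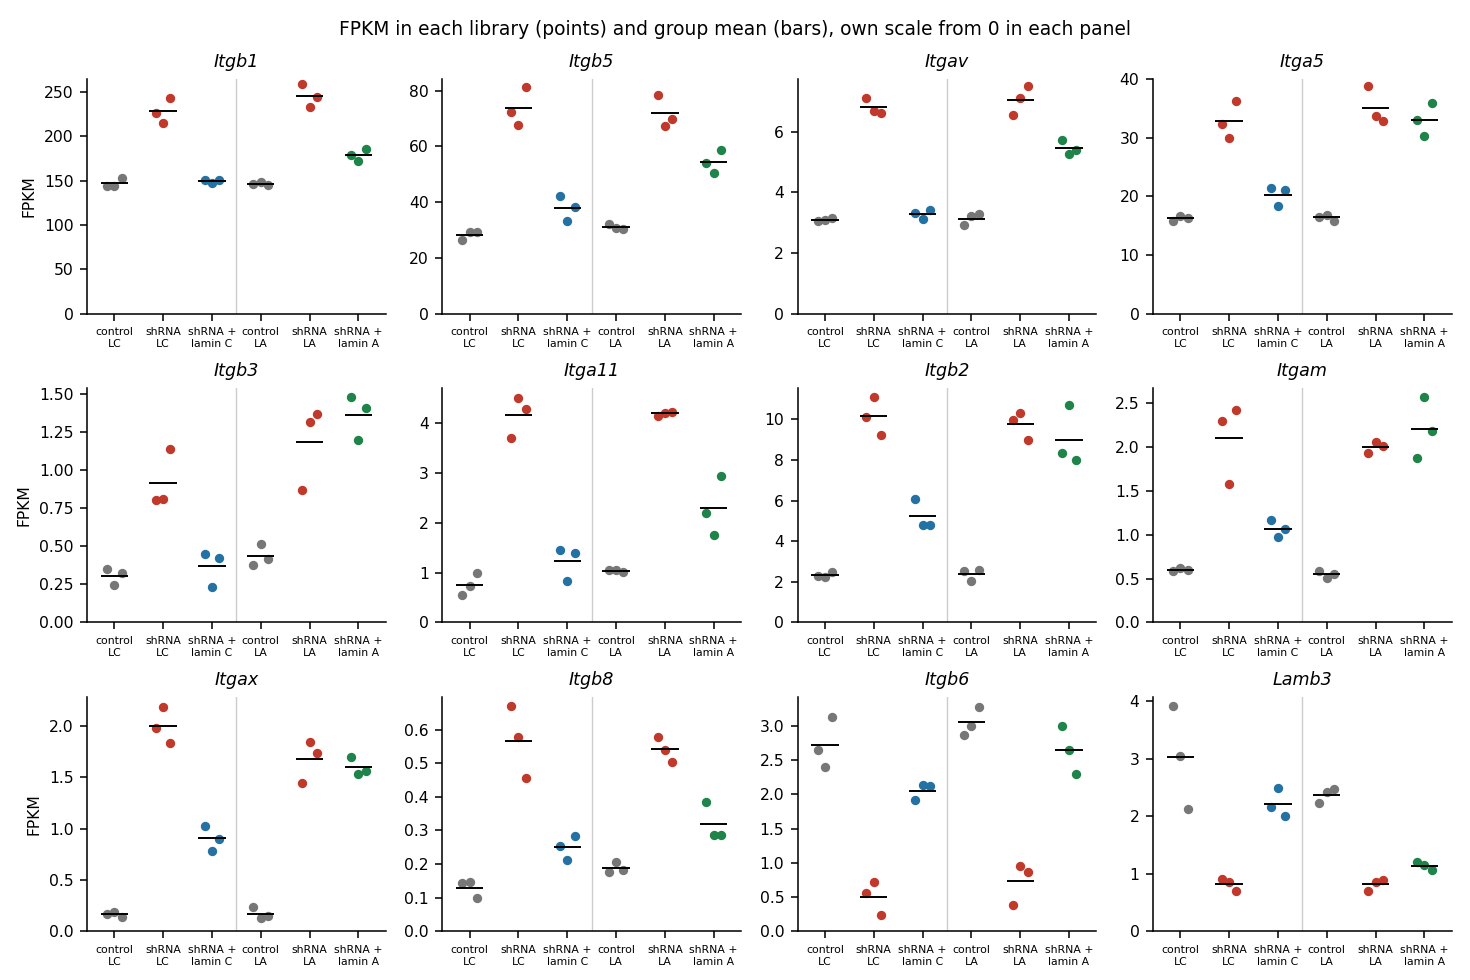
FPKM (y axis, its own linear scale from 0 in each panel) of 12 members in each of the 18 libraries, shown as points by group, with black bars for group means. Itgb6 and Lamb3 are low in both shRNA groups where the other 10 are high, and for Itgb3, Itgb2, Itgam and Itgax the lamin A libraries lie level with their shRNA hearts while the lamin C libraries lie below theirs.

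All 6 leukocyte subunits that could be tested rose. Itgb2 encodes β2, the common beta subunit of the leukocyte integrins, and went from 2.3, 2.24 and 2.49 to 10.1, 11.1 and 9.23 FPKM in batch LC. Itgb2 of batch LA went from 2.54, 2.03 and 2.6 to 9.95, 10.3 and 8.99 FPKM. It was the most abundant of this group, with a change of 2.12 ± 0.12 (adjusted p = 2.33e-11) and 2.04 ± 0.12 (adjusted p = 4.32e-11). Itgam, the αM chain of monocytes, macrophages and neutrophils, went from 0.586, 0.615 and 0.6 to 2.29, 1.58 and 2.42 FPKM in batch LC. In batch LA Itgam went from 0.582, 0.502 and 0.556 to 1.93, 2.06 and 2.01 FPKM, with log2 changes of 1.81 ± 0.15 (adjusted p = 3.93e-09) and 1.88 ± 0.15 (adjusted p = 2.94e-09). All shRNA libraries of both genes were above all control libraries. Itgax, the αX chain of dendritic cells and some macrophages, went from 0.173, 0.186 and 0.139 to 1.98, 2.18 and 1.83 FPKM in batch LC. Itgax of batch LA went from 0.233, 0.126 and 0.147 to 1.44, 1.84 and 1.74 FPKM. That was the largest rise of any member in both batches, 3.59 ± 0.18 (adjusted p = 3.47e-12) and 3.30 ± 0.18 (adjusted p = 1.07e-11).

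The lymphocyte subunits were scarce. Itgal, the αL chain of lymphocytes and other leukocytes, went from 0.239, 0.225 and 0.192 to 0.612, 0.79 and 0.579 FPKM in batch LC. In batch LA Itgal went from 0.383, 0.248 and 0.248 to 0.545, 0.752 and 0.638 FPKM, with log2 changes of 1.60 ± 0.20 (adjusted p = 8.16e-07) and 1.14 ± 0.19 (adjusted p = 3.27e-05). Itgae, the αE chain of tissue-resident lymphocytes and some dendritic cells, went from 0.112, 0.03 and 0.0459 to 0.349, 0.279 and 0.313 FPKM in batch LC. Itgae of batch LA went from 0.0136, 0.0488 and 0.0463 to 0.241, 0.364 and 0.374 FPKM, with 2 to 79 counts in a library. Its partner Itgb7 went from 0.277, 0.359 and 0.177 to 0.752, 1.07 and 0.909 FPKM in batch LC. In batch LA Itgb7 went from 0.146, 0.15 and 0.23 to 0.738, 1.09 and 1.11 FPKM. The groups did not overlap for any of these, and Itgae changed by 2.30 ± 0.41 (adjusted p = 6.02e-05) and 3.17 ± 0.44 (adjusted p = 4.25e-06) and Itgb7 by 1.74 ± 0.30 (adjusted p = 5.32e-05) and 2.49 ± 0.32 (adjusted p = 1.53e-06), with errors larger than those of the abundant members.

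Itga4, the α4 subunit that leukocytes use to bind VCAM-1 and fibronectin, went from 0.204, 0.233 and 0.263 to 0.563, 0.64 and 0.632 FPKM in batch LC. Itga4 of batch LA went from 0.251, 0.281 and 0.218 to 0.593, 0.652 and 0.581 FPKM, with log2 changes of 1.40 ± 0.13 (adjusted p = 1.2e-08) and 1.29 ± 0.13 (adjusted p = 3.41e-08). Its relative Itga9, a receptor for tenascin and VCAM-1, was more abundant, at 11.3, 12.0 and 14.6 FPKM in control and 13.9, 15.0 and 14.6 FPKM in shRNA hearts of batch LC. In batch LA the levels were 12.9, 13.8 and 12.0 FPKM in control and 14.1, 15.6 and 16.3 FPKM in shRNA hearts. Its change was small, 0.21 ± 0.08 (adjusted p = 0.0393) and 0.25 ± 0.08 (adjusted p = 0.0139). In batch LC the Itga9 call was lost without control library 1 or 2 or shRNA library 2 or 3, at 0.12 to 0.20, and in batch LA without control library 3 or shRNA library 3, at 0.19 and 0.20.

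Macrophage, T cell and dendritic cell markers were higher beside these genes. All 12 macrophage and monocyte markers, Itgam and Itgax not among them, were higher in shRNA hearts of both batches, with a sum of 241.4 to 313.5 FPKM in control, 892.8 to 1059.5 FPKM in shRNA and 452.0 to 529.9 FPKM in lamin C hearts of batch LC. In batch LA the sums were 277.0 to 295.7 FPKM in control, 893.4 to 1015.6 FPKM in shRNA and 880.2 to 940.7 FPKM in lamin A hearts. Over all genes 33.3% were higher and 29.6% lower in batch LC, and 32.4% and 29.0% in batch LA. Of 8 T and natural killer cell markers 6 were higher in each batch, of 6 dendritic cell markers 5 were higher and 1 lower, and of 5 B cell markers 1 was higher in batch LC and 1 lower in batch LA. Of 4 tested neutrophil markers 2 and 1 were higher, with Ly6g at 3 counts or fewer in every library. Cd3d was at 3 counts or fewer in control hearts of batch LC. Their part in the changes of the leukocyte integrins was not tested.

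The laminin alpha chains moved apart, with Lama2 and Lama4 higher and Lama5 lower. Summed over the alpha chains the level was 37.6 to 41.7 FPKM in control and 34.1 to 39.1 FPKM in shRNA hearts of batch LC, and over the beta chains 101.0 to 101.6 and 80.2 to 88.4 FPKM. The library size behind FPKM was below the library total in control hearts and above it in shRNA hearts. The lower alpha and beta sums therefore depend on that scale. Lama2, the alpha chain of the muscle basement membrane, stood at 8.72, 8.73 and 8.73 FPKM in control and 11.2, 12.8 and 11.3 FPKM in shRNA hearts of batch LC. Batch LA had 8.55, 8.55 and 8.58 FPKM in control and 12.4, 11.8 and 12.5 FPKM in shRNA hearts of batch LA. It rose without overlap by 0.43 ± 0.06 (adjusted p = 2.47e-06) and 0.52 ± 0.06 (adjusted p = 2.17e-07). Lama5, an alpha chain of vascular and epithelial basement membranes and the most abundant in control hearts, went from 21.9, 22.8 and 17.8 to 11.0, 13.3 and 14.5 FPKM in batch LC. In batch LA Lama5 went from 20.9, 21.0 and 21.7 to 12.7, 11.1 and 13.5 FPKM. It fell, with log2 changes of -0.68 ± 0.10 (adjusted p = 4.25e-06) and -0.76 ± 0.10 (adjusted p = 1.08e-06), and remained lower with library totals, at -0.25 and -0.32. The ratio of Lama2 to Lama5 was thus 0.383 to 0.489 in control and 0.778 to 1.02 in shRNA hearts of batch LC, and 0.395 to 0.41 and 0.932 to 1.06 in batch LA. Lama4, the other endothelial alpha chain, rose by 0.21 ± 0.08 (adjusted p = 0.0247) and 0.27 ± 0.08 (adjusted p = 0.00616), and in batch LC it lost its call without control library 1 or 2 or shRNA library 2, at 0.15 to 0.18. Lama3, an epithelial alpha chain, changed by 0.15 ± 0.15 and 0.06 ± 0.15 and was not called.

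Endothelial markers fell alongside Lama5: 8 of 8 were lower in shRNA hearts of both batches, with a sum of 204.0 to 231.4 FPKM in control and 126.8 to 142.2 FPKM in shRNA hearts of batch LC and 230.4 to 250.3 and 151.1 to 160.5 FPKM in batch LA. The shares of all genes that were lower were 29.6% and 29.0%. With library totals 3 of the 8 markers were lower in each batch, where 13.5% and 12.7% of all genes were, and 1 was higher in batch LA. Their part in the laminin results was not tested.

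The beta chains were lower or not called. Lamb2, the main beta chain of the adult heart, held 79.6 to 82.7% of the beta chain level in control hearts of batch LC, at 82.9, 84.1 and 80.9 FPKM, against 66.7, 72.5 and 73.5 FPKM in shRNA hearts, and went from 84.0, 81.2 and 82.6 to 70.5, 67.8 and 72.6 FPKM in batch LA. It fell, with log2 changes of -0.21 ± 0.06 (adjusted p = 0.00349) and -0.22 ± 0.06 (adjusted p = 0.00249) with TMM factors and was higher by 0.21 and 0.22 with library totals. Lamb3, a chain of the epithelial trimer laminin-332, went from 3.92, 3.05 and 2.12 to 0.905, 0.852 and 0.702 FPKM in batch LC. Lamb3 of batch LA went from 2.23, 2.43 and 2.48 to 0.705, 0.855 and 0.89 FPKM. No shRNA library reached 1 FPKM and no control library was under 2.12 FPKM, and the change was -1.88 ± 0.16 (adjusted p = 5.94e-09) and -1.53 ± 0.16 (adjusted p = 1.16e-07). Lamb1, a beta chain of vascular basement membranes, was called lower in batch LC and not in batch LA, at -0.22 ± 0.09 (adjusted p = 0.0417), with groups that overlapped. It lost that call without control library 3 (-0.09) or shRNA library 1 or 3 (-0.17 and -0.18), was 0.20 higher with library totals, and in batch LA it changed by -0.01 ± 0.09, or 0.42 with library totals.

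Lamc1, the common gamma chain, went from 32.4, 33.9 and 35.5 to 54.2, 60.1 and 53.8 FPKM in batch LC. In batch LA Lamc1 went from 35.7, 34.7 and 32.5 to 64.0, 62.0 and 65.8 FPKM. Its change was 0.73 ± 0.07 (adjusted p = 1.79e-08) and 0.91 ± 0.07 (adjusted p = 9.3e-10), with no overlap. Lamc3 changed by 0.24 ± 0.44 and -0.26 ± 0.43 at 13 to 64 counts in a library and was not called.

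**Figure D3:**
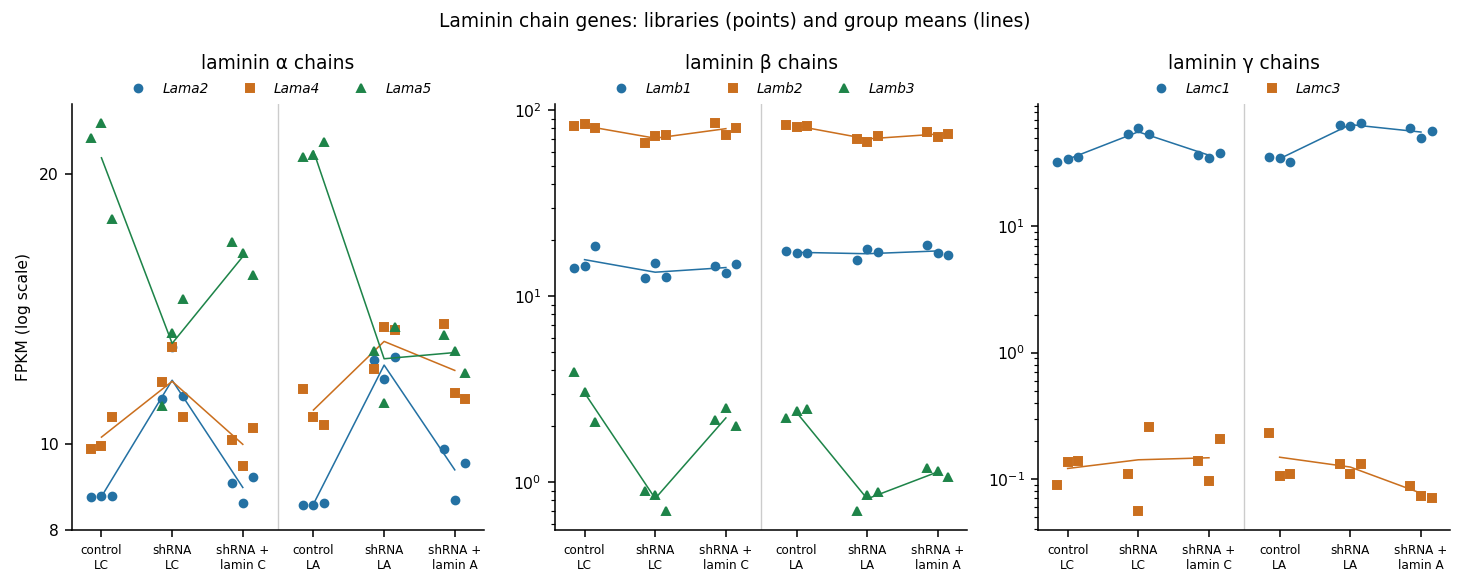
FPKM (y axis, log scale) of laminin alpha, beta and gamma chain genes in each library (points), with lines joining the group means within a batch. Lama5 falls to the level of Lama2 and Lama4 in shRNA hearts, Lamb3 falls, and Lamc1 rises, in both batches.

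In lamin C hearts most members were below the level of the shRNA hearts. Against the shRNA hearts of batch LC, 20 of 35 members were called lower and 5 higher, where 28.4% of all genes were lower and 25.7% higher, with a member median of -0.44 against -0.04 over all genes. Against their own controls, 13 members were still higher and 1, Lama5, lower, where 8.87% and 6.18% of all genes were, with a median of 0.09 against 0.00. The 1105 genes lower against control became 441 without lamin C library 1, 560 without lamin C library 3 and 709 without control library 1. Without control library 3 of both batches 11 members were higher and 2 lower, Lama5 (-0.46) and Lamb3 (-0.65). With library totals the splits of members became 2 higher and 27 lower against shRNA, where 13.1% and 51.5% of all genes were, and 14 higher and 0 lower against control, where 16.1% and 1.64% were. The 5 members higher than in shRNA hearts with TMM factors were the 5 that fell in shRNA hearts of both batches: Itgb6 (2.02 ± 0.28), Lamb3 (1.43 ± 0.16), Lama5 (0.32 ± 0.10), Itga1 (0.21 ± 0.07) and Lamb2 (0.17 ± 0.06). Lama5, Itga1 and Lamb2 were not called higher with library totals, at 0.01, -0.11 and -0.15. Their calls were also lost without 1 library each: Lama5 without shRNA library 1 (0.22), Itga1 without lamin C library 3 (0.18), and Lamb2 without shRNA library 1 or lamin C library 1 or 3 (0.11 to 0.16).

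In lamin A hearts most members were above control. Against their shRNA hearts 12 members were called lower and 3 higher (Itgb6, Lamb3 and Itga1), where 13.7% of all genes were lower and 16.1% higher, with a median of -0.20 against -0.00. Against control 19 were higher and 3 lower (Lama5, Lamb3 and Itga8), where 24.1% and 22.1% of all genes were, with a median of 0.39 against 0.02. Without control library 3 of both batches 17 members were higher and 2 lower against control. With library totals there were 1 higher and 20 lower against shRNA, where 7.16% and 34.7% of all genes were, and 27 higher and 2 lower against control, where 42.9% and 9.85% were. Itgb6 returned in both batches: lamin C libraries stood at 1.91, 2.13 and 2.12 FPKM and lamin A libraries at 3.0, 2.65 and 2.3 FPKM, above every shRNA library, with changes against shRNA hearts of 2.02 ± 0.28 (adjusted p = 4.52e-06) and 1.85 ± 0.26 (adjusted p = 2.75e-05). Against control Itgb6 differed by -0.40 ± 0.25 and -0.20 ± 0.24, neither of which passed the test, though each lamin C library was below each control library.

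Several members fell with both lamins. Itga7 and Lama2 fell, with log2 changes of -0.37 ± 0.05 and -0.40 ± 0.06 in lamin C and -0.39 ± 0.05 and -0.39 ± 0.06 in lamin A hearts, to within 0.01 ± 0.05 and 0.04 ± 0.06 of control with lamin C and 0.15 ± 0.05 and 0.13 ± 0.06 with lamin A. Of these residuals only that of Itga7 in lamin A hearts was called, and it lost its call without control library 2 or 3 or lamin A library 1 or 2, at 0.11 to 0.14. Itgb8 stood at 0.253, 0.213 and 0.284 FPKM in lamin C and 0.384, 0.286 and 0.287 FPKM in lamin A hearts, below every shRNA library and above every control library of its batch.

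The lymphocyte subunits and Itga4 stayed above control with either lamin. Itgal stood at 0.629, 0.505 and 0.628 FPKM in lamin C and 0.509, 0.453 and 0.41 FPKM in lamin A hearts, Itgb7 at 0.751, 0.734 and 0.766 FPKM in lamin C and 0.396, 0.858 and 0.422 FPKM in lamin A hearts, and Itgae at 0.248, 0.175 and 0.127 FPKM in lamin C and 0.178, 0.148 and 0.0936 FPKM in lamin A hearts. Against control Itgal was 1.42 ± 0.20 and 0.64 ± 0.19 higher, Itgb7 1.46 ± 0.31 and 1.68 ± 0.34, and Itgae 1.51 ± 0.43 and 1.94 ± 0.49. Itgal lost its call in lamin A hearts without control library 2 or 3 (0.53), and Itgae lost its call in lamin C hearts without control library 2 or 3 or lamin C library 1, at 1.18 to 1.33. Itga4 stood at 0.486, 0.467 and 0.408 FPKM in lamin C and 0.547, 0.57 and 0.455 FPKM in lamin A hearts, 0.96 ± 0.13 (adjusted p = 8.15e-05) and 1.07 ± 0.13 (adjusted p = 1.22e-06) above control. Itga2b stood at 0.232, 0.24 and 0.336 FPKM in lamin C and 0.381, 0.417 and 0.385 FPKM in lamin A hearts, 0.80 ± 0.24 and 1.06 ± 0.22 above control, and lost the call in lamin C hearts without control library 1 or 3 or lamin C library 3, at 0.61 to 0.77. T and natural killer cell markers summed to 0.673 to 1.35 FPKM in control, 3.06 to 4.11 FPKM in shRNA and 2.22 to 2.53 FPKM in lamin C hearts of batch LC. In batch LA the sums were 1.11 to 1.16 FPKM in control, 3.12 to 4.45 FPKM in shRNA and 1.85 to 2.41 FPKM in lamin A hearts. Of the 8 markers 3 were called higher than control in lamin C and 1 in lamin A hearts, against 8.87% and 24.1% of all genes. With library totals 5 were called higher in each, against 16.1% and 42.9% of all genes. Their part was not tested.

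The lamin effects were then compared with each other, as the lamin C change minus the lamin A change, each against its own shRNA hearts. Of 35 members, 10 were called lower and 1 higher, where 9.9% of all genes were called lower and 8.84% higher. Taken as residuals against each control, 8 members were called lower and 0 higher, against 7.35% and 7.29% of all genes. The medians were -0.13 and -0.20 against -0.01 over all genes in both. With library totals the counts became 12 lower and 1 higher for the effects, where 15.4% and 5.17% of all genes were, and 11 lower and 0 higher for the residuals, where 13.3% and 3.81% were. Without control library 3 of both batches 5 member residuals were lower and 0 higher. Over all genes the 1313 lower and 1303 higher residuals became 853 and 860 without these libraries, and 922 and 858 without lamin C library 2. Lamin C and lamin A hearts were in different batches, so these are differences of within-batch effects, and lamin, batch and the level reached by Lmna cannot be told apart.

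Leukocyte members made up part of this list. Itgb2 stood at 6.09, 4.8 and 4.8 FPKM in the lamin C and 8.32, 10.7 and 7.99 FPKM in lamin A hearts, and its effect differed by -0.84 ± 0.16 (adjusted p = 0.00109). Itgam stood at 1.17, 0.969 and 1.06 FPKM in lamin C and 1.87, 2.57 and 2.18 FPKM in lamin A hearts and differed by -1.12 ± 0.20 (adjusted p = 0.000564). Itgax stood at 1.03, 0.785 and 0.902 FPKM in lamin C and 1.7, 1.53 and 1.56 FPKM in lamin A hearts and differed by -1.08 ± 0.20 (adjusted p = 0.000882). In lamin C hearts all 3 fell from the shRNA level, with log2 changes of -0.96 ± 0.11, -0.98 ± 0.14 and -1.15 ± 0.14, whereas in lamin A hearts the changes were -0.12 ± 0.11, 0.14 ± 0.13 and -0.07 ± 0.14, none called. Even with lamin C they stayed above control, Itgax by 2.44 ± 0.19 (adjusted p = 2.01e-07). The macrophage and monocyte sums given above moved the same way. Of 12 markers 11 were lower in lamin C and 6 in lamin A than in shRNA hearts, against 28.4% and 13.7% of all genes. Of 6 dendritic cell markers, 1 was lower and 1 higher with lamin C, and 3 lower and 1 higher with lamin A. Their medians were -0.37 and -0.89, and their difference of effects had a median of 0.44, with 0 called. The part of both lists was not tested.

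The αv and fibronectin receptor genes differed too. Itgav stood at 3.33, 3.13 and 3.43 FPKM in lamin C hearts, 0.09 ± 0.06 from its controls and not called, and at 5.71, 5.27 and 5.4 FPKM in lamin A hearts, above its controls by 0.81 ± 0.06 (adjusted p = 4.9e-09). The difference of effects was -0.68 ± 0.09 (adjusted p = 4.4e-05), the smallest p of the 35 members. Itga5 stood at 21.4, 18.4 and 21.0 FPKM in lamin C and 33.1, 30.3 and 35.9 FPKM in lamin A hearts, a difference of -0.61 ± 0.12 (adjusted p = 0.00111), and lamin A hearts differed from shRNA hearts by -0.09 ± 0.08, not called. Itgb5 stood at 42.2, 33.2 and 38.1 FPKM in lamin C and 54.0, 50.5 and 58.6 FPKM in lamin A hearts and differed by -0.56 ± 0.12 (adjusted p = 0.00381). Itgb3 stood at 0.452, 0.231 and 0.424 FPKM in lamin C and 1.48, 1.2 and 1.41 FPKM in lamin A hearts and differed by -1.53 ± 0.31 (adjusted p = 0.00181), the largest difference of the 35: its change against control was 0.25 ± 0.26 with lamin C, not called, and its change against shRNA hearts 0.19 ± 0.20 with lamin A, not called. The 7 platelet markers summed to 20.9 to 25.7 FPKM in shRNA and 18.7 to 20.6 FPKM in lamin C hearts of batch LC. In batch LA the sums were 22.1 to 23.3 FPKM in shRNA and 28.4 to 34.6 FPKM in lamin A hearts. Of the 2 tested, 1 was called lower in the difference of effects, against 9.9% of all genes. Their part in the Itgb3 result was not tested. The Itga5 residual in lamin C hearts, 0.32 ± 0.08, lost its call without control library 1 or lamin C library 1 or 3, at 0.28 to 0.30.

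Itgb1 stood at 150.4, 146.8 and 150.7 FPKM in lamin C and 179.2, 172.5 and 186.1 FPKM in lamin A hearts. It fell with both lamins, and only the residual differed, by -0.27 ± 0.08 (adjusted p = 0.028), a call that was lost without any of 7 libraries (control 3 or lamin C 2 of batch LC, or control 1, 2 or 3 or lamin A 1 or 3 of batch LA), at -0.28 to -0.24. The collagen receptor Itga11 stood at 1.46, 0.829 and 1.39 FPKM in lamin C and 2.19, 1.76 and 2.94 FPKM in lamin A hearts. It differed by -0.91 ± 0.26 (adjusted p = 0.0211), lost without lamin C library 2 or lamin A library 3 (-0.68 and -0.69). Itga2 stood at 0.132, 0.0975 and 0.126 FPKM in lamin C and 0.276, 0.179 and 0.277 FPKM in lamin A hearts and differed by -1.05 ± 0.34 (adjusted p = 0.0354), lost without shRNA library 1 or lamin C library 2 or 3 of batch LC or shRNA library 1 or 2 or lamin A library 1 or 3 of batch LA, at -1.11 to -0.92. Against control Itga11 was higher by 0.70 ± 0.22 (adjusted p = 0.0402) in lamin C hearts, where the groups overlapped and the call was lost without control library 1 or 2 or lamin C library 1 or 3, at 0.50 to 0.67.

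Among the laminins Lamc1 and Lamb3 differed between the lamins. Lamc1 stood at 36.9, 35.0 and 37.8 FPKM in lamin C hearts, 0.11 ± 0.07 from control, and at 60.4, 49.8 and 57.2 FPKM in lamin A hearts, 0.71 ± 0.07 above control, a difference of effects of -0.42 ± 0.10 (adjusted p = 0.00471). Its fall against the shRNA hearts with lamin A, -0.20 ± 0.07, lost its call without shRNA library 1 or 3 or lamin A library 2 or 3, at -0.21 to -0.12. Lamb3 was the 1 member called higher: it stood at 2.16, 2.5 and 2.01 FPKM in lamin C and 1.2, 1.15 and 1.07 FPKM in lamin A hearts, a difference of 0.96 ± 0.23 (adjusted p = 0.00728). Its rise with lamin A, 0.48 ± 0.17, lost its call with library totals (0.27) or without shRNA library 1 or 2 or lamin A library 1 or 2, at 0.38 to 0.51, while its rise with lamin C was 1.43 ± 0.16 (adjusted p = 4.34e-07). Lama5 stood at 16.8, 16.3 and 15.4 FPKM in lamin C and 13.2, 12.7 and 12.0 FPKM in lamin A hearts. Its difference of effects was 0.30 ± 0.14 and not called (adjusted p = 0.135), and it was below control with both lamins, at -0.36 ± 0.10 (adjusted p = 0.0145) and -0.74 ± 0.10 (adjusted p = 3.19e-06), of which the first lost its call with library totals (-0.25) and without control library 1 or 2 or lamin C library 3, at -0.33 to -0.29.

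**Figure D4:**
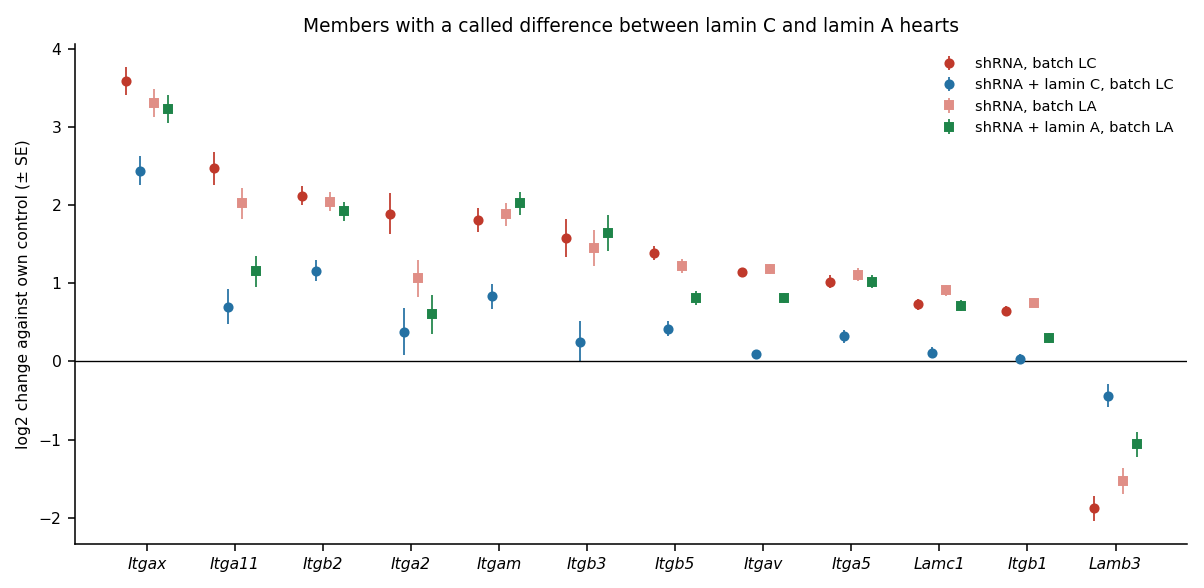
Log2 change against the control of the same batch (y axis, ± SE) for the 12 members with a called difference between lamin C and lamin A hearts, with circles for batch LC and squares for batch LA. In all 12 the lamin C point lies nearer to 0 than the lamin A point, and for Itgam and Itgb3 the lamin A point is at or above that of the shRNA hearts. The 12 were picked by a called difference of effects or of residuals, so this order follows in part from the choice. Itgax, Itga2, Itga11 and Lamb3 had no called difference of residuals.

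Smaller calls in the lamin hearts were these. Itgal (-0.50 ± 0.18), Itgb7 (-0.81 ± 0.27) and Itgae (-1.23 ± 0.35) fell with lamin A, and lost the call without 1 library: shRNA 2 or 3 or lamin A 2 or 3 for Itgal (-0.51 to -0.38), shRNA 2 or 3 or lamin A 1 or 3 for Itgb7 (-0.73 to -0.62), and lamin A 3 for Itgae (-1.0). Itga1 rose with lamin A by 0.24 ± 0.07, lost with library totals (0.04) or without shRNA library 1 (0.17). Itga8 differed from control in lamin A hearts by -0.43 ± 0.17 (adjusted p = 0.0459), or -0.19 and not called with library totals, and lost the call without control library 2 or 3 or any 1 lamin A library, at -0.48 to -0.30. Lama3 fell with lamin C, at -0.49 ± 0.16 (adjusted p = 0.0119), lost without lamin C library 2 (-0.36). Lama4 fell with lamin C, at -0.24 ± 0.08, lost without shRNA library 2 or lamin C library 2 (-0.17 and -0.20).

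Genes that work with the members were counted in 4 lists, beside the 33.3% higher and 29.6% lower of all genes in batch LC and 32.4% and 29.0% in batch LA, or 58.3% and 13.5% and 59.5% and 12.7% with library totals. Of 17 basement membrane partners of laminin, 13 were higher and 1 lower in shRNA hearts of batch LC and 15 and 0 in batch LA, with medians of 0.91 and 0.85 (with library totals 16 and 0, and 17 and 0). Frem1, a basement membrane protein of the Fraser complex, rose by 5.03 ± 0.23 and 5.16 ± 0.23 and Sparc, a collagen-binding matricellular protein, by 1.81 ± 0.10 and 1.72 ± 0.10. Col18a1 and Col15a1, 2 of the collagens of the basement membrane zone, rose by 1.09 ± 0.10 and 1.22 ± 0.12 in batch LC. With lamin C 14 of the 17 fell from the shRNA level and with lamin A 9, where 28.4% and 13.7% of all genes were lower. With library totals 16 and 14 of the 17 fell, where 51.5% and 34.7% of all genes were lower.

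Of 17 tested ligands of the other integrins, 14 were higher and 2 lower in batch LC and 15 and 2 in batch LA, with medians of 2.35 and 1.95. Fn1, fibronectin and a ligand of α5β1, rose by 3.14 ± 0.18 and 3.04 ± 0.17, and Postn, periostin and a ligand of αv integrins, by 5.49 ± 0.24 and 5.37 ± 0.24. Thbs1 and Fbln5, a thrombospondin and an RGD-bearing fibulin, rose by 4.33 ± 0.22 and 1.95 ± 0.09 in batch LC. Postn is also in the activated fibroblast list.

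The laminin receptors outside the integrin family had more genes lower than higher with TMM factors, a split that turned with library totals. The 15 genes were those for dystroglycan, its partners and its glycosylation, and the laminin receptors Bcam and Rpsa. Of these, 3 were higher and 9 lower in batch LC and 3 and 7 in batch LA, with medians of -0.22 and -0.15. Sgca and Sgcb, sarcoglycans of the muscle membrane, fell, with log2 changes of -1.31 ± 0.06 and -0.40 ± 0.05 in batch LC. With library totals the list turned, to 9 higher and 3 lower in batch LC and 9 and 4 in batch LA (medians of 0.21 and 0.29), with Sgca (-0.89) still lower in batch LC and Sgcb at 0.03, not called.

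Of 43 tested activators, adaptors and kinases of integrins, 22 were higher and 11 lower in batch LC and 23 and 12 in batch LA, with medians of 0.28 and 0.32, or 34 and 2 and 34 and 3 with library totals. Actn1, the non-muscle α-actinin of focal adhesions, rose by 1.75 ± 0.07 and 1.83 ± 0.07, and Tns3, a tensin that binds β subunit tails, by 1.34 ± 0.08 and 1.35 ± 0.08. Itgbl1, a secreted protein with integrin-like repeats, was counted in this list though it is in none of the classes named. It rose by 3.98 ± 0.21 and 3.73 ± 0.21, the largest rises of the list. Itgb1bp2, melusin, a muscle protein that binds the β1 tail, fell, with log2 changes of -1.35 ± 0.07 and -1.13 ± 0.07, or -0.93 and -0.69 with library totals, where Itgb1 rose.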

How the data were processed

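Poly(A) RNA of 18 heart apex samples was sequenced from strand-marked libraries, per the labels' protocols, and whether strand was used in counting is not stated there. Deposited by the authors were a table of read counts for 54532 genes and a table of FPKM. The submitters' processing notes name HISAT2 2.0.5, featureCounts 1.5.0-p3, StringTie 1.3.3b, DESeq2 1.20.0 and the mouse build mm10, with no role stated. The deposited FPKM matched counts divided by gene length and by an adjusted library size, which was 0.879 to 1.226 times the library total. Counts were tested in R 4.3.3 with edgeR 4.0.16 (quasi-likelihood fit): TMM factors, its default filter (17876 genes kept), 1 fit of 6 groups (12 residual degrees of freedom) and Benjamini-Hochberg adjustment over all genes tested, with a threshold of 0.05. Every log2 change is from this fit of the deposited counts, its error is the SE, and levels are the authors' FPKM. A count of 3, the floor used here for presence, was 0.0622 to 0.108 CPM in a library. No sample column was left unassigned. Pairs of libraries differed by more than counting noise, and the fit was tested on simulated data.

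Given in full are members called the same way in both batches with a log2 change of at least 1, those whose lamin C and lamin A changes differed, and the most abundant of each class. Of each partner list up to 4 called genes with the smallest p in batch LC are named. Results of some single genes are not reported here, also where these rules would name them, and counts are over all members or list genes. The members and the gene lists were chosen with earlier results of these data known. Motifs were searched in RefSeq promoters of GRCm38.p6, the build called mm10. Alternatives were library totals, RLE factors, no filter, DESeq2 1.42.0, limma 3.58.1 on log2 of FPKM plus 1 or 0.1, a replicate block, fits without mitochondrially encoded genes or with only the groups compared, each library left out, and, chosen after seeing the data, both controls numbered 3 left out.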

Additional observations from a re-analysis of the deposited data

Results flagged for a closer look

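The model's test of the difference between the lamin effects, each against the shRNA hearts of its own batch, called 11 members. Lamin C minus lamin A was -1.53 ± 0.31 for Itgb3, -1.12 ± 0.20 for Itgam, -1.08 ± 0.20 for Itgax, -1.05 ± 0.34 for Itga2, -0.91 ± 0.26 for Itga11 and -0.84 ± 0.16 for Itgb2. It was -0.68 ± 0.09 for Itgav, -0.61 ± 0.12 for Itga5, -0.56 ± 0.12 for Itgb5 and -0.42 ± 0.10 for Lamc1, and 0.96 ± 0.23 for Lamb3, the 1 positive difference (log2, ± SE).

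Against the controls instead, the test called 8 members, all more negative for lamin C. The differences were -1.39 ± 0.35 for Itgb3, -1.19 ± 0.22 for Itgam, -0.76 ± 0.18 for Itgb2, -0.72 ± 0.09 for Itgav and -0.70 ± 0.12 for Itga5. They were -0.60 ± 0.10 for Lamc1, -0.39 ± 0.13 for Itgb5 and -0.27 ± 0.08 for Itgb1. The calls for Itgb5 and Itgb1 were lost without 1 of several libraries: for Itgb5 control 2 or 3 or lamin C 2 or 3 of batch LC, or any 1 control library or lamin A 1 or 3 of batch LA, at -0.41 to -0.30, and for Itgb1 those given with its levels above, at -0.28 to -0.24. The call for Itgb3 was lost without control library 3 of both batches, at -1.32. The lamin given and the batch cannot be told apart in either comparison.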

How the results depend on the processing

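Of the called changes, 25 of 29 members in shRNA against control of batch LC and 27 of 28 in batch LA kept their call under every alternative run except library totals. For lamin C and lamin A against shRNA hearts 20 of 25 and 9 of 15 did, against control 9 of 14 and 19 of 22, and for the differences of effects and of residuals 9 of 11 and 5 of 8. Without control library 3 of both batches, an alternative chosen after seeing the data, 2 members were lower in lamin C against control and 5 in the difference of residuals, where Itgb1 (-0.23), Itgb5 (-0.34) and Itgb3 (-1.32) lost their calls. With library totals the direction of Lamb2 (0.21 and 0.22), Lamb1 (0.20 and 0.42), Itga6 (0.27 and 0.30) and Itga1 (0.09 and 0.16) in shRNA against control of batches LC and LA was reversed, as was that of Itga8 in batch LC (0.41), of Lamb2 (-0.15), Lamb1 (-0.23) and Itga1 (-0.11) in lamin C against shRNA, and of Itga1 in lamin A against control (0.19). The members called lower in shRNA hearts were then 3 in each batch. Those called in lamin C against shRNA were 2 higher, in lamin A against shRNA 1 higher and 20 lower, and in lamin C against control 0 lower. These moves follow from the scale, which shifts the median of all genes. With log2 of FPKM plus 1 or 0.1, which tested 25 members, 7 and 8 were higher in lamin C against control. The members lower in lamin C against control were 3 with no filter, and 2 each with DESeq2, the replicate block or only the groups compared. The members with a higher residual under lamin C than lamin A were 2 with no filter or DESeq2 and 1 with the replicate block or only the groups compared, and those with a higher effect were 2 with no filter. With 1 library left out the counts ran from 3 to 5 (lamin C against shRNA, higher), 1 to 3 (lamin A against shRNA, higher), 0 to 2 (lamin C against control, lower), 1 to 2 (difference of effects, higher) and 0 to 1 (difference of residuals, higher), and no direction was reversed. The cause of these differences was not tested. Libraries of the same number did not deviate together (correlations of -0.046 to 0.062 within a batch), so the numbers were not read as pairs. The replicate block gave 23 higher and 5 lower members in shRNA against control of each batch. Depth limits Itgae, Itga2, Lamc3 and Itgb7 most, and Itgad and Lama1 could not be tested.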
